A study of Mus musculus with 18 samples.

Results

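Rgs1, Rgs2, Rgs3, Rgs10, Rgs14, Rgs16, Rgs19 and Gem were described in CD3+ tumor-infiltrating lymphocytes (TILs) of B16-OVA melanomas. These 8 of the 37236 genes in the table were found by symbol. They were chosen by name with earlier results of the same samples known, and Rgs2 and Gem were put forward because they were higher in Nr2f6-/- than in Nr2f6+/+ TILs under anti-PD-L1. The values of that contrast are therefore given as a description. For Rgs2 and Gem no p-value is given in any contrast that uses the anti-PD-L1 samples, and where they are counted among genes past a threshold there, the count is descriptive and supports nothing. All 8 genes averaged 10 or more normalized read counts over the 18 samples, and 11992 genes in all did so and were tested.

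The G proteins below receptors on the cell surface, chemokine and prostaglandin receptors of T cells among them, are active while their alpha subunit holds GTP. Regulator of G protein signaling (RGS) proteins speed up GTP hydrolysis by the alpha subunit and so end the signal. Gem belongs to the RGK group of small GTPases, which bind the beta subunits of voltage-gated calcium channels, and it was first described in mitogen-activated T cells. Several RGS genes and Gem are induced in lymphocytes early after stimulation.

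C57BL/6 mice were injected subcutaneously with 500000 B16-OVA cells, a mouse melanoma line that carries ovalbumin as a model antigen, and received 0.5 mg of antibody intraperitoneally from d3 on, repeated within each week. The 4 groups were Nr2f6+/+ with the control antibody IgG2b (n = 3), Nr2f6-/- with IgG2b (n = 3), Nr2f6+/+ with anti-PD-L1 (n = 6) and Nr2f6-/- with anti-PD-L1 (n = 6), all harvested at d14. Nr2f6-/- mice lack the nuclear receptor NR2F6 in every cell of the body, so the deletion was not limited to the T cells, while the injected tumor cells were the same line in both genotypes. CD3+ cells were sorted after a bead selection for CD4 and CD8, and 3′ end libraries were sequenced.

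Between 12473391 and 18609482 reads were assigned to genes per sample (median 16554699), and 3 reads were worth 2.46 to 3.64 normalized counts. Nr2f6 was at 0 in all 9 Nr2f6-/- samples, 20.2 to 101 in Nr2f6+/+ samples with IgG2b and 26.1 to 201 in those with anti-PD-L1. All 10 T cell markers were above 0 in every sample, and the 5 B cell markers summed to at most 193 normalized counts in any sample. The 6 CD8 T cell markers summed to 57114 to 58723 in Nr2f6+/+ and 67880 to 84149 in Nr2f6-/- TILs with IgG2b, and to 52310 to 101919 and 94657 to 118032 with anti-PD-L1. The library numbers in the labels run from 28 to 39 for replicates 1 to 3 of every group and from 43 to 48 for replicates 4 to 6, which are anti-PD-L1 samples in both genotypes. These are called the first and the second library set. The 12 macrophage and monocyte markers summed to 16064 to 20222 normalized counts in Nr2f6+/+ TILs with IgG2b, 8877 to 12691 in Nr2f6-/- with IgG2b, 1587 to 6635 in Nr2f6+/+ with anti-PD-L1 and 865 to 2655 in Nr2f6-/- with anti-PD-L1. In such bulk samples, fewer cells of a type and less RNA per cell cannot be told apart.

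Rgs2, an RGS protein of the R4 subfamily that acts mainly on Gq, was low in 1 group of the 4. In Nr2f6+/+ TILs with IgG2b it measured 9784, 8911 and 13258 normalized counts in replicates 1 to 3 (mean 10651 ± 2299, SD, n = 3). In Nr2f6-/- TILs with IgG2b the values were 16714, 16245 and 12432 (15130 ± 2349, SD, n = 3). In Nr2f6+/+ TILs with anti-PD-L1 the lowest sample had 2219, the median was 2751 and the highest had 3232 (2699 ± 399, SD, n = 6). All 6 of these samples lay below every sample of the other 3 groups. In Nr2f6-/- TILs with anti-PD-L1 the lowest sample had 3566, the median was 11960 and the highest had 13072 (9939 ± 3826, SD, n = 6). In that group 4 samples lay between 11739 and 13072, and the other two, replicates 5 and 6 of the second library set, had 6876 and 3566. In order of the group means, the ranges of neighbouring groups overlapped except between the lowest group and the one above it.

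**Figure D1:**
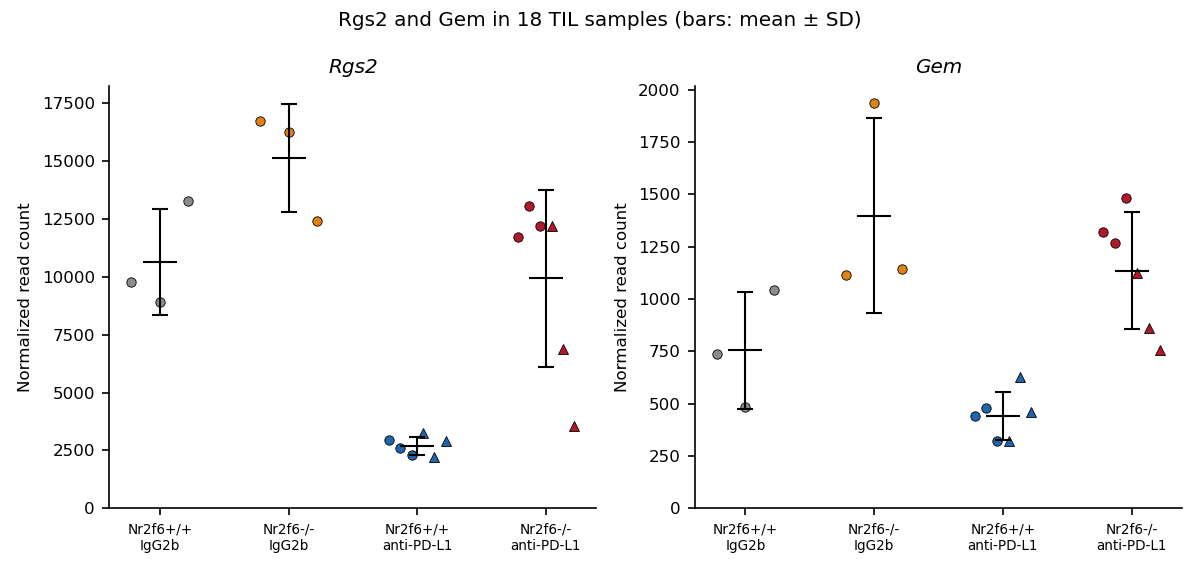
Normalized read counts of Rgs2 (left) and Gem (right) in each of 18 samples by group, with circles for replicates 1 to 3, triangles for replicates 4 to 6 and black bars for the mean ± SD. The 6 Nr2f6+/+ samples with anti-PD-L1 lay between 2219 and 3232 for Rgs2, below every other sample, and between 321 and 629 for Gem.

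Rgs2 lies on the minus strand of chromosome 1, from 143999338 to 144004149 in GRCm38.p6, 0.241 Mb from Rgs1 on the same strand. Of the 8 genes, 5 had entries in a RefSeq table of promoters. The 250 bases before the start of Rgs2 (chr1:144004150-144004399, minus strand) are shown because Rgs2 carries the difference described here, and those of Rgs16 (chr1:153740103-153740352, plus strand), its relative in the R4 subfamily on the same chromosome, are shown for comparison. Both are from RefSeq on GRCm38.p6 and read 5′ to 3′ in the direction of the gene. Capitals mark the cAMP response element half-site TGACG, the CCAAT box CCAAT and the GC box GGGCGG on either strand, 3 motifs that were chosen after the Rgs2 sequence had been read.
Rgs2: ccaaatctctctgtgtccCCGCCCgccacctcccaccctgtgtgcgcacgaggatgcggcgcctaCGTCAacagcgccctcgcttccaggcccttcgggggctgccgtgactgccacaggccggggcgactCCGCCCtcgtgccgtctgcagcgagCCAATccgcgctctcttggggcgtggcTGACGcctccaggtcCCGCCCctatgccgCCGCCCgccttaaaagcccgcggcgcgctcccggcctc
Rgs16: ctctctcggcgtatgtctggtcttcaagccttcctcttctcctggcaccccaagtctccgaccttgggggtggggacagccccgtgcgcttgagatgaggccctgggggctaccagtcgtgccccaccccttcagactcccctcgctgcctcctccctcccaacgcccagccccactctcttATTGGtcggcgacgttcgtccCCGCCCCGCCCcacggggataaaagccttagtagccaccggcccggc

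In the Rgs2 sequence TGACG occurs at positions -67 to -63 on the strand of the gene and, on the other strand, at -185 to -181, counted from the first transcribed base. It also holds 1 CCAAT and 4 GC boxes. The Rgs16 sequence holds no TGACG, 1 CCAAT and a pair of GC boxes that share 1 base. Among 32851 promoters of the same length, 17.8% hold TGACG, 33.8% CCAAT and 32.7% GGGCGG. The full element TGACGTCA, which contains TGACG and is in 1.55% of all promoters, is in neither sequence, nor is the AP-1 motif TGANTCA (6.75% of promoters), AGGTCA of nuclear receptors (14.02%), the NFAT core GGAAAA (20.4%) or TATAAA (12.4%). The GC content was 72.4% for Rgs2 and 66.4% for Rgs16, against a median of 52.4% over all promoters.

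Gem was lowest in the same group as Rgs2. It lies on the plus strand of chromosome 4, from 11704447 to 11714993. Nr2f6+/+ TILs with IgG2b had 736, 485 and 1042 normalized counts (754 ± 279, SD, n = 3), and Nr2f6-/- TILs with IgG2b had 1115, 1937 and 1143 (1398 ± 467, SD, n = 3). With anti-PD-L1, the Nr2f6+/+ samples had 321 at the lowest, 450.4 as the median and 629 at the highest (442 ± 115, SD, n = 6). The Nr2f6-/- samples with anti-PD-L1 had 759, 1197 and 1481 as the lowest, median and highest values (1136 ± 279, SD, n = 6). Every Nr2f6-/- sample was thus above every Nr2f6+/+ sample under the same antibody. With IgG2b, where 3 samples face 3, 14.2% of the genes tested had groups that did not overlap in either direction. With anti-PD-L1 0.592% did, but Gem was put forward because of that contrast, so nothing is read from it there. Across antibodies the ranges overlapped, since the lowest Nr2f6+/+ sample with IgG2b (485) lay inside the range of the Nr2f6+/+ samples with anti-PD-L1.

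The contrast of Nr2f6-/- against Nr2f6+/+ under anti-PD-L1, which asks how the deletion alters TILs during PD-L1 blockade, put Rgs2 and Gem forward. On the log2(normalized count + 1) scale, Rgs2 was 1.76 higher in Nr2f6-/- TILs (SE 0.23, 3.39-fold) and Gem 1.36 higher (SE 0.27, 2.56-fold). In limma, 2 of the 8 genes, these 2, passed an adjusted p of 0.05 over all genes, as did 0.175% of the genes tested, and the groups did not overlap for 2 of 8, as for 0.592% of the genes tested. Since the choice of the genes used this contrast, nothing is read from these shares. Several lists of cell type markers moved with this contrast. Of the 6 CD8 T cell markers, 5 had higher estimates in Nr2f6-/- TILs (median 0.62, against -0.0049 over all genes). None passed the adjusted threshold in limma or edgeR, and 1 (Cd8b1) did in DESeq2, which called 183 of the 11992 genes in this contrast. An unadjusted 0.05 in limma was passed by 4 of the 6 and by 9.73% of all genes. Lower estimates were found for 9 of 12 macrophage and monocyte markers (median -1.07), 5 of 5 melanoma cell markers tested (median -1.03) and 5 of 6 CD4 T cell markers (median -0.32). Of these lists 3, 2 and 2 genes passed an unadjusted 0.05 in limma. None passed the adjusted threshold in limma or edgeR, and 1 (Arg1) did in DESeq2. The part of the marker lists in the differences of Rgs2 and Gem was not tested. Rgs2 was 2.25 higher on the log2 scale (SE 0.19) with the first set alone and 1.28 higher (SE 0.44) with the second set alone, and Gem 1.72 (SE 0.34) and 0.99 (SE 0.33). The count of 2 became 0 with the second set alone, where 0 of all 11992 genes were called. It became 1, without Gem, when Nr2f6-/- anti-PD-L1 replicate 1, 2 or 3 or Nr2f6+/+ anti-PD-L1 replicate 4 was left out. These fits called 12, 9, 17 and 11 of all genes in turn, where the main fit called 21.

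The other 6 genes are given for the same contrast as differences with their 95% intervals. Rgs3, also of the R4 subfamily, was 0.71 higher in Nr2f6-/- TILs (interval -0.15 to 1.56), Rgs1 0.39 higher (-0.03 to 0.81) and Rgs16 0.28 higher (-0.13 to 0.68). Rgs10 and Rgs14, both of the R12 subfamily, differed by -0.51 (-1.22 to 0.20) and 0.05 (-0.61 to 0.72), and Rgs19, of the RZ subfamily, by -0.15 (-0.81 to 0.51). All 6 intervals include 0. The interval of Rgs3 reaches above 1 and that of Rgs10 below -1 on the log2 scale.

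The IgG2b samples had no part in the choice of Rgs2 and Gem, and ask whether the genotypes differ without PD-L1 blockade. Gem was 0.91 higher in Nr2f6-/- than in Nr2f6+/+ TILs (SE 0.38, 1.88-fold, higher in 3 of 3 samples than in any Nr2f6+/+ sample). It did not pass correction over all genes (limma adjusted p = 0.884, unadjusted p = 0.0233), and the exact permutation test of 3 against 3 gave p = 0.1, two-sided, the smallest it can give. Rgs2 was 0.52 higher (SE 0.32, limma adjusted p = 0.979; exact permutation p = 0.2), and the lowest Nr2f6-/- sample, with 12432, lay below the highest Nr2f6+/+ sample, with 13258. Its 95% interval was -0.14 to 1.17. Marker lists also moved in this contrast. Lower estimates in Nr2f6-/- TILs were found for 12 of 12 macrophage and monocyte markers (median -0.80, against -0.06 over all genes). The same held for 5 of 5 melanoma cell markers tested (median -1.28). Of 6 CD8 T cell markers, 4 had higher estimates (median 0.25). None of these markers passed the adjusted threshold in limma, edgeR or DESeq2. The part of these lists in the differences of the 8 genes was not tested.

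Rgs1, an RGS protein known to dampen lymphocyte migration to chemokines, lay the other way with IgG2b. The Nr2f6+/+ samples had 1413, 2100 and 1365 normalized counts and the Nr2f6-/- samples 1009, 1206 and 1138, with no overlap. The log2 difference was -0.52 (SE 0.29, limma adjusted p = 0.955), with an exact permutation p = 0.1. In total 2 of the 8 genes, Gem and Rgs1, had groups that did not overlap, and so had 14.2% of the genes tested, since 3 samples face 3. None of the 8 passed an adjusted p of 0.05 with limma, edgeR or DESeq2. Of the genes tested, 0% passed it in limma, while edgeR called 0 and DESeq2 88 of the 11992. An unadjusted 0.05 in limma was passed by 1 of the 8, Gem, and by 5.35% of the genes tested. For the remaining 5 genes the limma adjusted p was 0.989 or above.

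**Figure D2:**
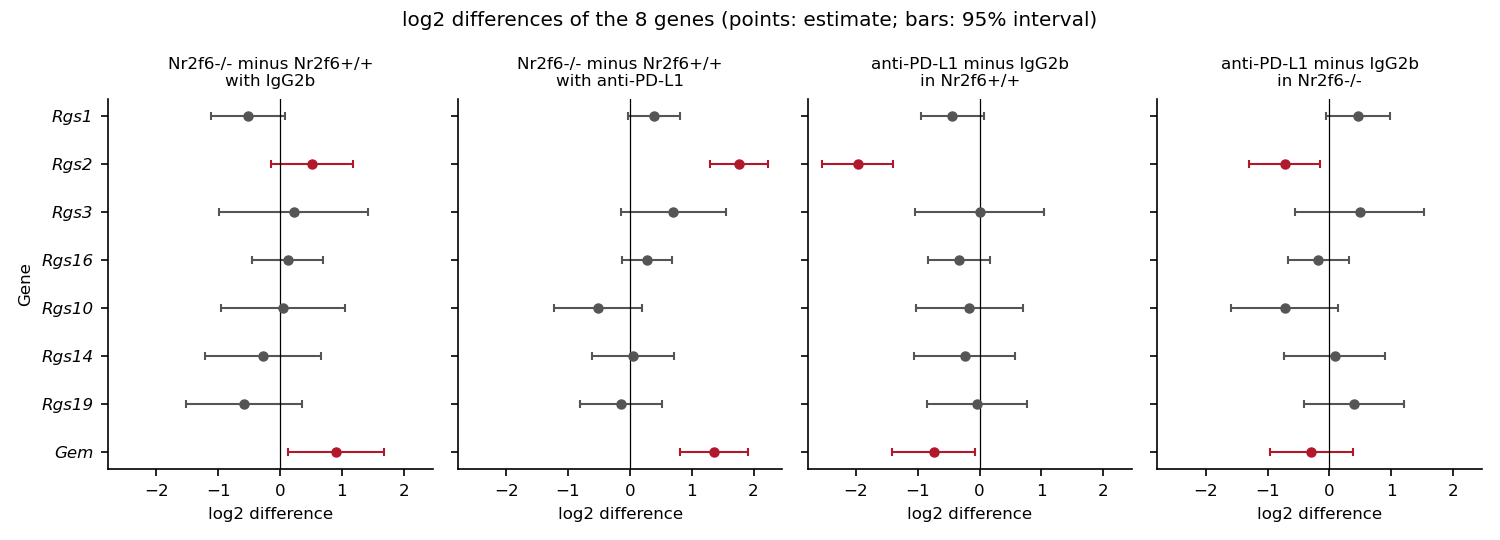
Differences of the 8 genes on the log2(normalized count + 1) scale in 4 comparisons, with points for the limma estimates and bars for their 95% intervals, and with Rgs2 and Gem in red. The estimate for Rgs2 was 1.76 for the genotypes under anti-PD-L1 and -1.97 for anti-PD-L1 against IgG2b in Nr2f6+/+ TILs. Rgs2 and Gem were chosen with the anti-PD-L1 samples in view. Their intervals in comparisons that use those samples are therefore a description only and support nothing.

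In Nr2f6+/+ TILs, anti-PD-L1 was compared with IgG2b to describe PD-L1 blockade without the deletion. Rgs2 was lower by 1.97 on the log2 scale with anti-PD-L1 (log2 difference -1.97, SE 0.28, 3.92-fold lower), and the 6 samples did not overlap the 3 with IgG2b. Gem differed by -0.74 (SE 0.33). Of the 8 genes 1, Rgs2, passed the adjusted threshold in limma, edgeR and DESeq2. Of the genes tested, 0.242% passed it in limma, while edgeR called 19 and DESeq2 94 of the 11992. For the same 1 gene the groups did not overlap, as for 4.54% of the genes tested. These samples had a part in the choice of Rgs2, so nothing is read from these counts. The median difference over all genes was -0.10 and lay at -0.19 with libraries scaled to the same total and at 0.04 in edgeR. With the first library set alone, which holds 3 samples of each group, Rgs2 differed by -2.01 (SE 0.19), and with the library set as a covariate by -1.77 (SE 0.28). In the same samples the summed macrophage and monocyte markers were at 16064 or above with IgG2b and at 6635 or below with anti-PD-L1. Their part in the Rgs2 difference was not tested.

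In Nr2f6-/- TILs Rgs2 differed between the antibodies by -0.72 (SE 0.28, 1.65-fold lower), and the highest anti-PD-L1 sample (13072) lay inside the range of the IgG2b samples (12432 to 16714). The same macrophage and monocyte markers were at 8877 or above with IgG2b and at 2655 or below with anti-PD-L1, and their part was not tested. With the first library set alone the difference was -0.28 (SE 0.19). Gem differed by -0.29 (SE 0.33) over all samples and by 0.00 with the first set alone (SE 0.34). None of the 8 genes passed the adjusted threshold with limma, edgeR or DESeq2. Of the genes tested, 0.325% passed it in limma, while edgeR called 36 and DESeq2 230 of the 11992. An unadjusted 0.05 in limma was passed by 1 gene, Rgs2, counted as a description only, and by 9.70% of the genes tested. The groups overlapped for all 8 genes, while they did not for 5.12% of the genes tested.

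The antibody effects in the 2 genotypes were then set against each other in one model, as the difference in Nr2f6-/- minus the difference in Nr2f6+/+ TILs. It was 1.25 for Rgs2 (SE 0.39) and 0.45 for Gem (SE 0.46), with no p-value given for either. For Rgs1 it was 0.91 (SE 0.35, limma adjusted p = 0.974, unadjusted p = 0.0162). Rgs1 was 0.44 lower with anti-PD-L1 in Nr2f6+/+ TILs (log2 difference -0.44, SE 0.25) and 0.46 higher in Nr2f6-/- TILs (SE 0.25). The 6 Nr2f6+/+ samples with anti-PD-L1 had 900.1 to 1383 normalized counts of Rgs1 (median 1233), and the 6 Nr2f6-/- samples 1124 to 2079 (median 1572). No gene of the 8 passed the adjusted threshold in limma or edgeR, where 0% of the genes tested passed it in limma. In DESeq2 1 gene (Rgs2) passed, as did 76 of the 11992 genes, and 2 (Rgs1 and Rgs2) passed an unadjusted 0.05 in limma, as did 4.97% of the genes tested. Rgs2 is counted here as a description only.

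Nr2f6-/- TILs with anti-PD-L1 were also compared with Nr2f6+/+ TILs with IgG2b, which sets both changes together against neither. Rgs2 differed by -0.21 (SE 0.28) with overlapping ranges of 3566 to 13072 and 8911 to 13258. Gem was 0.62 higher (SE 0.33). No gene of the 8 passed the adjusted threshold in limma, edgeR or DESeq2 or an unadjusted 0.05 in limma. Of all genes tested, 0.617% passed the adjusted and 9.04% the unadjusted one in limma, while edgeR called 41 and DESeq2 177 of the 11992. No gene of the 8 had groups that did not overlap, against 6.17% of the genes tested.

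Rgs16, Rgs3, Rgs10, Rgs14 and Rgs19 showed overlapping ranges in every comparison. Rgs16, an R4 member that T cells induce on activation, had 3729, 4574 and 6349 normalized counts in Nr2f6+/+ and 6883, 4262 and 4756 in Nr2f6-/- TILs with IgG2b. With anti-PD-L1 it had 2229 to 6183 (median 3795) in Nr2f6+/+ and 3765 to 5831 (median 4382) in Nr2f6-/- TILs. Its highest value over the 18 samples was 3.09 times its lowest, whereas for Rgs2 this ratio was 7.53 and for Gem 6.03. Rgs3 had 184 to 444 with IgG2b and 136 to 587 with anti-PD-L1 in Nr2f6+/+ TILs, and 271 to 439 and 337 to 917 in Nr2f6-/- TILs. An antisense gene, Gm11209, overlaps Rgs3 and had a mean of 1.90 normalized counts over all samples.

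Rgs10, which is known to limit inflammatory signaling in myeloid cells, spread most under anti-PD-L1 in Nr2f6-/- TILs. There it had 250.1 at the lowest, 562 as the median and 1429 at the highest. Of the 6 samples, 4 (250.1 to 590.4) lay below all 6 Nr2f6+/+ samples with anti-PD-L1 (638 to 1101). Replicates 4 and 6, with 1429 and 1161, lay above all 6 of them. The IgG2b samples had 672 to 1097 in Nr2f6+/+ and 721 to 1265 in Nr2f6-/- TILs. The difference between the genotypes under anti-PD-L1 changed sign between the library sets, from -1.06 with the first to 0.03 with the second. Rgs14, which also binds Ras and Rap proteins, had 599 to 758 and 410 to 696 with IgG2b in Nr2f6+/+ and Nr2f6-/- TILs and 294 to 1215 and 461 to 1067 with anti-PD-L1. Rgs19, which binds alpha subunits of the Gi group, had 493.4 to 785 and 342 to 578 with IgG2b and 423 to 1113 and 327 to 932 with anti-PD-L1. For these 5 genes the limma adjusted p was 0.614 or above in each of the comparisons of antibodies.

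**Figure D3:**
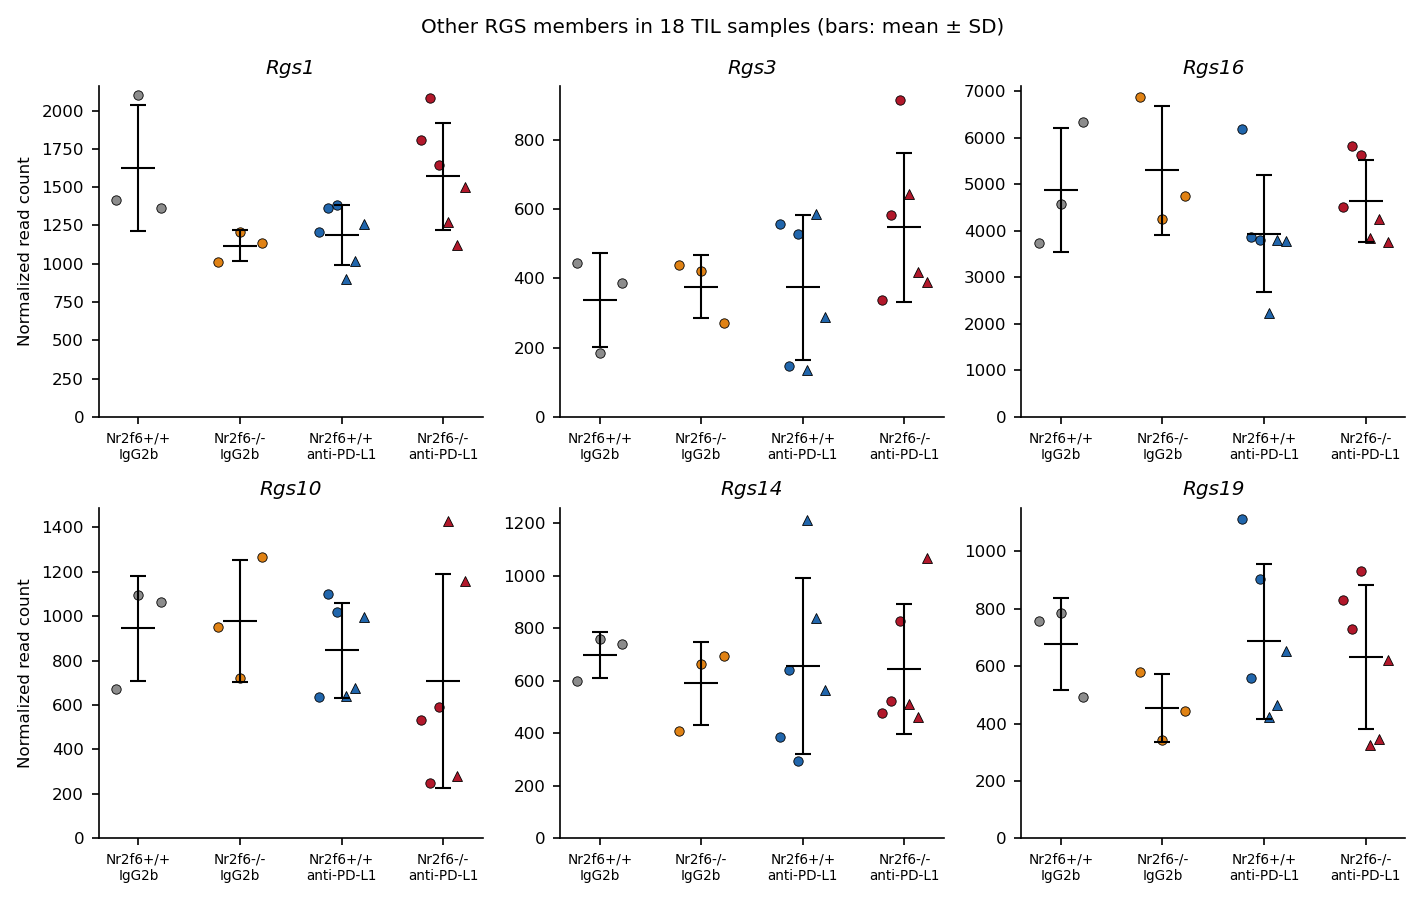
Normalized read counts of Rgs1, Rgs3, Rgs16, Rgs10, Rgs14 and Rgs19 in each of 18 samples by group, with circles for replicates 1 to 3, triangles for replicates 4 to 6 and black bars for the mean ± SD. The Rgs1 values of the Nr2f6-/- samples with IgG2b (1009 to 1206) lay below those of the Nr2f6+/+ samples (1365 to 2100), and the groups of the other 5 genes overlapped.

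Of 97 further genes (other RGS and RGK genes, partners of Gem, G protein alpha, beta and gamma subunits, receptor kinases and arrestins, other regulators, effectors, and Gi-coupled receptors of T cells) 69 could be tested. With Nr2f6-/- against Nr2f6+/+ under anti-PD-L1, 1 of 69 was called in limma, where 0.175% of all genes were, none in edgeR and 2 in DESeq2, which called 183 of the 11992 genes. An unadjusted 0.05 in limma was passed by 8 of 69 and by 9.73% of all genes. The gene called in limma was Arrb1, which encodes beta-arrestin 1, a protein that uncouples receptors from G proteins and carries them inside. It measured 529 to 1841 normalized counts (median 960.3) in the 6 Nr2f6+/+ samples and 53.9 to 540 (median 244) in the 6 Nr2f6-/- samples, and the log2 difference was -2.19 (SE 0.46, limma adjusted p = 0.0318). Arrb1 also differed between the library sets. The first set had 529 to 741 in Nr2f6+/+ and 53.9 to 229 in Nr2f6-/- samples, and the second 1179 to 1841 and 260 to 540. In the other 5 contrasts, including the difference between the antibody effects, limma and edgeR called none of the 69, and DESeq2 called between 0 and 3, while it called 76 to 230 of all genes tested. In these contrasts 2 to 13 of the 69 passed an unadjusted 0.05 in limma, as did 4.97% to 9.70% of all genes.

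Of the 14 other RGS genes, 4 (Rgs5, Rgs8, Rgs12 and Rgs18) reached a mean of 10 normalized counts. Rgs4, Rgs13 and Rgs20 were at 0 in all 18 samples, although Rgs13 lies on chromosome 1 between Rgs2 and Rgs1. Rgs18, known from platelets and lying beyond Rgs1 on the same chromosome, was at 0 in all 6 Nr2f6-/- samples with anti-PD-L1 and between 0 and 153 in the Nr2f6+/+ samples (limma adjusted p = 0.414), and DESeq2 called it lower in the former. The alpha subunit genes had a median difference of -0.46 with anti-PD-L1 in Nr2f6+/+ TILs and of -0.63 in Nr2f6-/- TILs, where all genes had -0.10 and -0.04. The Gi-coupled receptors, 15 genes and all tested, had medians of -0.89 and -0.75. No gene of either list passed the adjusted threshold in limma or edgeR. In DESeq2, Gnai3, an inhibitory alpha subunit, passed it in Nr2f6-/- TILs, lower with anti-PD-L1. The chemokine receptor Cxcr6 passed it there in the other direction, higher with anti-PD-L1. DESeq2 called 230 of the 11992 genes in that contrast. Cxcr6 was also called higher in Nr2f6-/- TILs with anti-PD-L1 than in Nr2f6+/+ TILs with IgG2b, where DESeq2 called 177. The 15 receptors summed to 28992 to 38861 normalized counts with IgG2b and 39482 to 53905 with anti-PD-L1 in Nr2f6-/- TILs. In Nr2f6+/+ TILs the sums were 32930 to 38794 and 28249 to 53664.

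The early response genes are transcription factors, phosphatases and others that cells switch on within minutes of a stimulus. With anti-PD-L1 in Nr2f6+/+ TILs 17 of 19 tested had a lower estimate (median -1.27, against -0.10 over all genes) and 4 fell past the threshold in limma, which 0.242% of all genes passed. These were the transcription factor genes Nr4a1 (-1.74, SE 0.32, adjusted p = 0.00927), Fosl2 (-1.58, SE 0.30, adjusted p = 0.0115) and Fos (-2.69, SE 0.52, adjusted p = 0.0130), and Dusp1, a MAP kinase phosphatase (-1.47, SE 0.22, adjusted p = 0.000774). In Nr2f6-/- TILs 18 of 19 were lower (median -1.18, against -0.04), and 3 passed, where 0.325% of all genes did. These were Nr4a1 (-1.74, adjusted p = 0.0104), Dusp1 (-1.12, adjusted p = 0.0146) and Fosl2 (-1.50, adjusted p = 0.0146). The second library set, however, holds no IgG2b samples. In Nr2f6-/- samples with anti-PD-L1, Nr4a1 had 2588 to 3972 normalized counts in the first set and 1095 to 1613 in the second. In Nr2f6+/+ samples with anti-PD-L1 it had 1246 to 1985 and 851 to 1807. For the antibodies in Nr2f6-/- TILs, the first set alone called 8 of all 11992 genes, where the main fit called 39. Between the genotypes under anti-PD-L1 none of the 19 passed in limma or edgeR. In DESeq2 1 (Dusp1) passed, and 183 of the 11992 genes did. An unadjusted 0.05 in limma was passed by 3 of the 19 and by 9.73% of all genes. The median of the 19 was 0.45. The summed level of the 20 listed genes ranged from 47023 to 56290 normalized counts in Nr2f6+/+ and from 57419 to 62742 in Nr2f6-/- TILs with IgG2b, and from 28527 to 39884 and from 27268 to 42731 with anti-PD-L1. Replicate 6 of the Nr2f6-/- samples with anti-PD-L1, the lowest of its group in Rgs2, had the lowest sum of all 18, and its part in the Rgs2 spread was not tested.

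Of 11 genes that respond to cyclic AMP, a messenger whose production Gi and Gs alpha subunits control, 2 fell with anti-PD-L1 in limma in each genotype, where 0.242% of all genes were called in Nr2f6+/+ and 0.325% in Nr2f6-/- TILs. In both they were Nr4a1 and Fosl2, which the early response list also holds. The 8 heat shock genes, listed with handling of the tissue in view, had no call in limma, edgeR or DESeq2 in any comparison. Their median was -0.11 with anti-PD-L1 in Nr2f6+/+ TILs, where that of all genes was -0.10. It was -0.42 with anti-PD-L1 in Nr2f6-/- TILs (all genes -0.04), -0.29 between the genotypes under anti-PD-L1 (all genes -0.0049), -0.21 between them with IgG2b (all genes -0.06) and -0.55 for both changes together (all genes -0.12). An unadjusted 0.05 in limma was passed by 3 of the 8 between the genotypes under anti-PD-L1, all 3 lower, and by 9.73% of all genes, and by 0 to 3 in the other contrasts, against 4.97% to 9.70%. Their part in the differences of Rgs2 and Gem was not tested. These 8 genes cannot tell how handling acted on other genes, and its part in the early response genes was not tested.

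**Figure D4:**
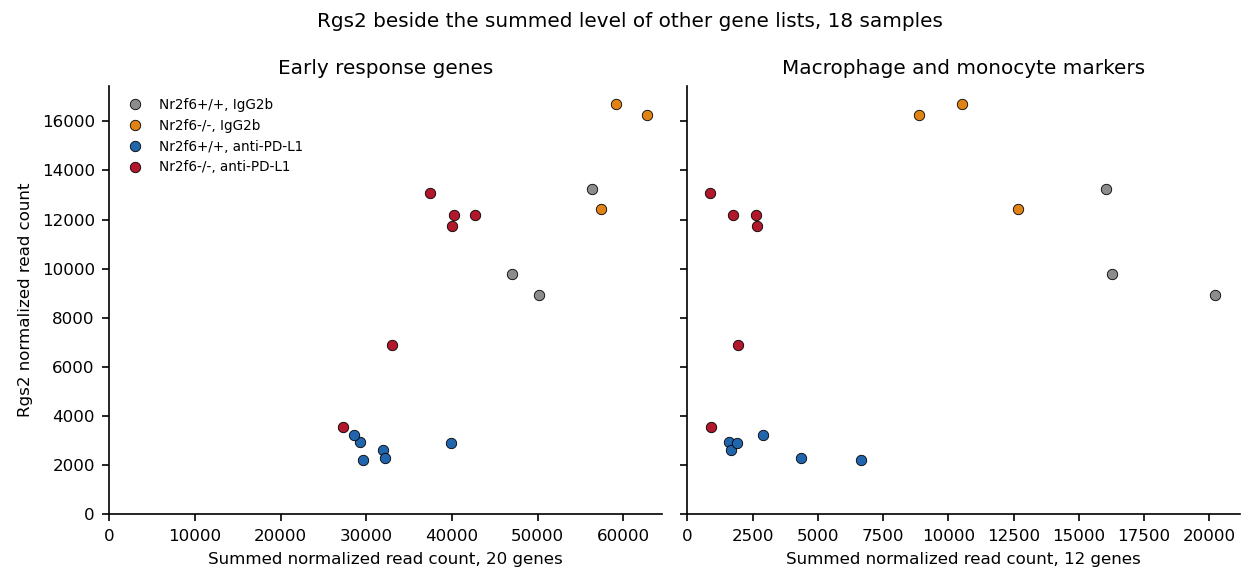
Normalized read count of Rgs2 in each of 18 samples against the summed normalized read count of the 20 early response genes (left) and of the 12 macrophage and monocyte markers (right), with points coloured by group. With anti-PD-L1 the 6 Nr2f6+/+ samples had 2219 to 3232 counts of Rgs2 and early response sums of 28527 to 39884. The 4 Nr2f6-/- samples with 11739 to 13072 counts of Rgs2 had sums of 37389 to 42731. Nr2f6-/- replicates 5 and 6, with 6876 and 3566 counts of Rgs2, had 33040 and 27268. The marker sums were 1587 to 6635 in Nr2f6+/+ and 865 to 2655 in Nr2f6-/- samples. The part of either list in the Rgs2 levels was not tested.

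Genes whose levels followed Rgs2 and Gem most closely were sought among 9638 genes averaging 50 or more normalized counts, by Pearson's r of the log2 values over the 18 samples. These correlations include the differences between the 4 groups, come from the same libraries and are given as a description. Rgs2 was followed most closely by Tnfaip3 (r = 0.889), an inhibitor of NF-kB signaling, Nfkbiz (0.864), an IkB family protein of the nucleus, Dusp1 (0.861), Gem (0.844) and Gm24497 (0.839), a predicted gene. Tnfaip3 had means of 2911 and 4216 normalized counts with IgG2b in Nr2f6+/+ and Nr2f6-/- TILs, and of 792 and 2011 with anti-PD-L1. Gm24497 was at 0 in all 6 Nr2f6+/+ samples with anti-PD-L1 and had means of 46.5 to 139 in the other groups. For Gem the closest were Rgs2 (0.844), the phosphatase gene Ptpn22 (0.834), Atp11b (0.825), the ubiquitin ligase gene March7 (0.809) and Fuca2 (0.800). Ptpn22 had means of 2051 and 3167 with IgG2b and of 1956 and 2931 with anti-PD-L1, in Nr2f6+/+ and Nr2f6-/- TILs in turn. After the mean of each group had been subtracted, r between Rgs2 and Gem was 0.53.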

How the data were processed

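RNA of 18 samples of CD3+ TILs was sequenced with a 3′ end kit. Per the labels, reads were processed with cutadapt, Trimmomatic, STAR, Bowtie2, HTSeq and DESeq2 on mm10. Their versions, the annotation and the strand setting are not given in the sources used here. How reads of overlapping and antisense genes were assigned is therefore not known. The values that the authors deposited are a signal, reads counted for a gene and divided by a factor that scales the library. In each column 100% of the values were whole multiples of the smallest one (tolerance 0.01), so that reads could be recovered. Depth was 12473391 to 18609482 reads per sample. No pair among 153 pairs of samples was identical.

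Values were tested as log2(value + 1) with limma 3.58.1 in R 4.3.3, with a trend, in one model of 4 group means over 18 samples, for 11992 genes with a mean of at least 10. P-values were two-sided and Benjamini-Hochberg adjusted over all genes tested, with a threshold of 0.05. Exact permutation tests (scipy 1.17.1) were run on the 6 IgG2b samples. The scripts were tested on simulated data. Alternatives were edgeR 4.0.16 and DESeq2 1.42.0 on the recovered reads, pseudocounts of 0.5 and 10, a minimum mean of 50 or none, quantile and total scaling, fits of the groups compared only, library sets, a replicate block and leaving out each sample. Promoters were taken from RefSeq.

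All 8 genes are named. Of the other lists, at most 4 called genes per list and comparison are named, besides the 5 genes most correlated with Rgs2 and with Gem. Genes named for counts of 0 or for DESeq2 calls were chosen after their values were seen. The members, lists and tests were chosen with earlier results of these data known. P-values set a difference between groups against the spread between samples within groups, part of which may be technical. Groups share replicate numbers, but no source says that a number marks a common animal or day.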

Additional observations from a re-analysis of the deposited data

How the results depend on the processing

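Rgs2 and Gem were chosen with the anti-PD-L1 samples in view, so the counts that include them there describe the settings and support no call. For the genotypes under anti-PD-L1 the count was 2 of 8 (Rgs2 and Gem) in limma, where 21 of 11992 genes were called. It was 1 (Rgs2) with no filter, with 9 of 20903 genes called, and when only the groups compared were fitted, with 4 of 11992. With the second library set alone, 3 samples against 3, it was 0, as for all genes. Leaving out single samples gave 1 to 2, and 9 to 27 over all genes. The difference between the antibody effects gave 1 call (Rgs2) in DESeq2, among 76 over all genes, against 0 in limma, where 0 of all genes were called. The log2 difference of Rgs2 between the antibodies in Nr2f6+/+ TILs ranged from -2.07 to -1.77 over 12 other settings and from -2.09 to -1.80 over 9 fits without one sample. Differences that were not called changed sign in part, such as that of Rgs19 between the antibodies in Nr2f6+/+ TILs (-0.13 to 0.39). With the replicate block the count under anti-PD-L1 was 2, with 31 of all 11992 genes called, and the block changed no count of called genes among the 8. Same-numbered samples of different groups did not deviate together (21 pairs, r of -0.03 to 0.04), so the numbers give no pairing. Of the 5 genes closest to Rgs2 and to Gem, 2 and 3 were also among the closest 5 by Spearman's rank correlation, and none after group means were subtracted. All 8 genes had at least 143 reads in each sample, so depth did not limit their detection.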
